A study of Mus musculus with 10 samples.

Results

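Transcripts of 10 genes that encode proteins of the granules and cytosol of neutrophils were followed across 10 RNA libraries of sorted hippocampal microglia: S100a8, S100a9, Ngp, Camp, Ltf, Lcn2, Mmp8, Chil3, Itgb2l and Wfdc21. They were taken by symbol from the 55453 genes of the count table, and had been proposed because they carry weight on the first principal component (PC1) of these same libraries. All 10 had enough reads to enter the comparison of treatments, as 14481 genes in all did. The libraries came from female 3xTg AD mice aged over 15 months, 5 treated with phosphate-buffered saline (PBS) and 5 with glatiramer acetate (GA), an immunomodulatory mixture of synthetic peptides, at 0.1 mg weekly for about 8 weeks. Every animal in both groups carried the mutated human transgenes of the 3xTg line, which the Thy1 promoter drives in neurons, so no library here represents a mouse without them. Microglia were gated as CD45int CD11b+ cells after removal of myelin, and their RNA was converted to cDNA and amplified before libraries were made. The labels do not say whether each library is a separate animal, so p-values measure the spread between these libraries, which may be technical in part.

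Neutrophils mature in the bone marrow and pack antimicrobial proteins into granules in a fixed sequence, with the azurophil granules filled first, at the promyelocyte stage, and the specific and gelatinase granules filled later. Transcripts of the granule proteins are made mainly by developing cells and decline as the neutrophil matures and enters the blood. Microglia, the resident macrophages of the brain, are not known as a main source of these transcripts, and the gate used here excludes cells with the high CD45 of most blood leukocytes only as well as the sort separates them.

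The members were placed on the genome (GRCm38, gene models of GENCODE M21, all protein coding). S100a8 (chr3:90668978-90670035, plus strand) and S100a9 (chr3:90692632-90695721, minus strand) lie close together, and their proteins pair as calprotectin, a calcium-binding protein that withholds metal ions from microbes. Ngp (chr9:110419747-110423012, plus strand) encodes neutrophilic granule protein, Camp (chr9:109847379-109849617, minus strand) the cathelicidin precursor of an antimicrobial peptide, and Ltf (chr9:111019271-111042767, plus strand) the iron-binding lactotransferrin. These 3 genes lie on the same chromosome as Mmp8 (chr9:7558456-7568485, plus strand), which encodes neutrophil collagenase. Lcn2 (chr2:32384633-32388252, minus strand) encodes lipocalin 2, which binds bacterial siderophores, and Chil3 (chr3:106147554-106167564, minus strand) encodes a chitinase-like lectin of myeloid cells. Itgb2l (chr16:96422288-96443619, minus strand) encodes an integrin beta-2-like chain. Wfdc21 (chr11:83746940-83752642, plus strand) encodes a small protein with a whey acidic protein domain. The span of Itgb2l overlaps that of Igsf5 on the other strand, with 0 exon bases in common, and the other 9 members overlap no annotated gene.

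Because the 10 transcripts were chosen for varying together, the sequence before their transcription starts is shown for the calprotectin pair and for Ngp, Ltf and Camp on chromosome 9. The stretches are the 250 bases before the RefSeq start (GRCm38.p6), read 5′ to 3′ on the strand of the gene, at chr3:90668821-90669070 for S100a8, chr3:90695722-90695971 for S100a9, chr9:110419558-110419807 for Ngp, chr9:111019042-111019291 for Ltf and chr9:109849457-109849706 for Camp. The RefSeq start differs from the GENCODE start for S100a8, Ngp, Ltf and Camp. Capitals mark matches to the C/EBP letters TTNNGNAA or to the TATA letters TATAAA on either strand:
S100a8: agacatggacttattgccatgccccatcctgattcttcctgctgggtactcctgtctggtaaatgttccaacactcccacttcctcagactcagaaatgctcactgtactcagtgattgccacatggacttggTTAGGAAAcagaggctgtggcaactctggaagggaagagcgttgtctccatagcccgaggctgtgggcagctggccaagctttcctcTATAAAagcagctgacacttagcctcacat
S100a9: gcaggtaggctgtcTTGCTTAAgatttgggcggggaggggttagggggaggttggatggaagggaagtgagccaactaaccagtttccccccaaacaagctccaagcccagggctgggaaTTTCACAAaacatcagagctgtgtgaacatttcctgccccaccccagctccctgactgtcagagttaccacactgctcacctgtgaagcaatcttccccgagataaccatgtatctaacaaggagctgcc
Ngp: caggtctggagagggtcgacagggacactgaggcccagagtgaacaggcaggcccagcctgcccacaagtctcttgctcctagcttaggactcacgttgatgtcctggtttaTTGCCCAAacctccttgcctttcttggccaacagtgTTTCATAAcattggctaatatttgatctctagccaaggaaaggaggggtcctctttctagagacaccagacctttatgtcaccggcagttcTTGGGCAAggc
Ltf: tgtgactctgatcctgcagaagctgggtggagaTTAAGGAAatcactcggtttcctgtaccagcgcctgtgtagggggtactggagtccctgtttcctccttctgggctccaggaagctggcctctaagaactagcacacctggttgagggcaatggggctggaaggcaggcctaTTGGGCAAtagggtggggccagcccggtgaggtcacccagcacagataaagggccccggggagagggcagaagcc
Camp: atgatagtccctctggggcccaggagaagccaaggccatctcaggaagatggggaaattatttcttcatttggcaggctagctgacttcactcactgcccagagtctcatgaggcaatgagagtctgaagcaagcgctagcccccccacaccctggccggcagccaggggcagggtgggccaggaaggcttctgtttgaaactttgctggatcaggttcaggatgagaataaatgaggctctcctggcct

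Over windows from 250 bases before to 50 after the RefSeq start, which were at hand for 9 members and not for Wfdc21, the C/EBP letters were found in 8 of 9 (88.9%), compared with 40.7% of all 32851 windows of the same length. Camp was the member without them. C/EBP factors drive granule genes during neutrophil maturation. The letters GAGGAA, the core bound by the myeloid factor PU.1, were found on either strand in 5 of 9 windows (55.6%) and in 28.3% of all windows. The letters TATAAA were found on either strand in 4 of 9 (44.4%) and in 13.6% of all windows. In S100a8 they began 30 bases before the start, close to where a TATA box usually lies. In S100a9 they began 0 bases before it, and in Mmp8 and Chil3 3 bases before it. Matches beginning 20 to 40 bases before the start were found in 1 of 9 windows and in 2.5% of all windows. None of the 26 matches in the members overlapped another, and the median GC content was 51.3% in the members' windows and 52.7% in all windows. A match describes the letters in a window and does not show that a factor binds there.

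The 10 transcripts were a small part of each library. Library totals ran from 32332185 to 38764643 counts, and the members together took between 0.00106% of them (373 counts, GA 3) and 0.0481% (15559 counts, PBS 3). Levels are given below as counts per 1e6 counts (CPM) after TMM scaling of the library sizes. Markers of microglia, the labelled cell type, summed to between 37074 and 45047 CPM in PBS and between 37530 and 42142 CPM in GA. Itgam, which encodes the CD11b of the gate, was at 88.7 CPM in PBS 4 and between 191 and 299 CPM in the other libraries, and without PBS 4 the members' median log2 fold change of GA against PBS was -1.98, compared with -1.90 with it. The PBS libraries share the title prefix 388, GA 1 and GA 2 the prefix 394, and GA 3 to GA 5 the prefix 400, so prefix and treatment cannot be told apart in the comparison of groups.

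Summed over the 10 genes, the level spanned 44.1-fold across the libraries. It was 169 CPM in PBS 1, 40.5 in PBS 2, 475 in PBS 3, 315 in PBS 4 and 386 in PBS 5. It was 45.5 CPM in GA 1, 175 in GA 2, 10.8 in GA 3, 18.2 in GA 4 and 110 in GA 5. The groups overlapped, with PBS 2 below 3 of the 5 GA libraries and GA 2 above 2 of the 5 PBS libraries, and the 3 highest libraries were all PBS. The mean was 277 ± 173 CPM in PBS and 71.9 ± 69.7 CPM in GA (SD, n = 5 each), a ratio of 3.85. Without GA 2 the GA mean was 46.0 CPM and the ratio 6.02, and over the other libraries left out in turn the ratio ran from 3.17 to 4.68. The difference of the means, GA minus PBS, was -205 CPM, and -103 CPM without PBS 3 and PBS 5, the 2 libraries farthest from the median. In bulk RNA, fewer cells of a type and less RNA of that type per cell cannot be told apart.

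**Figure D1:**
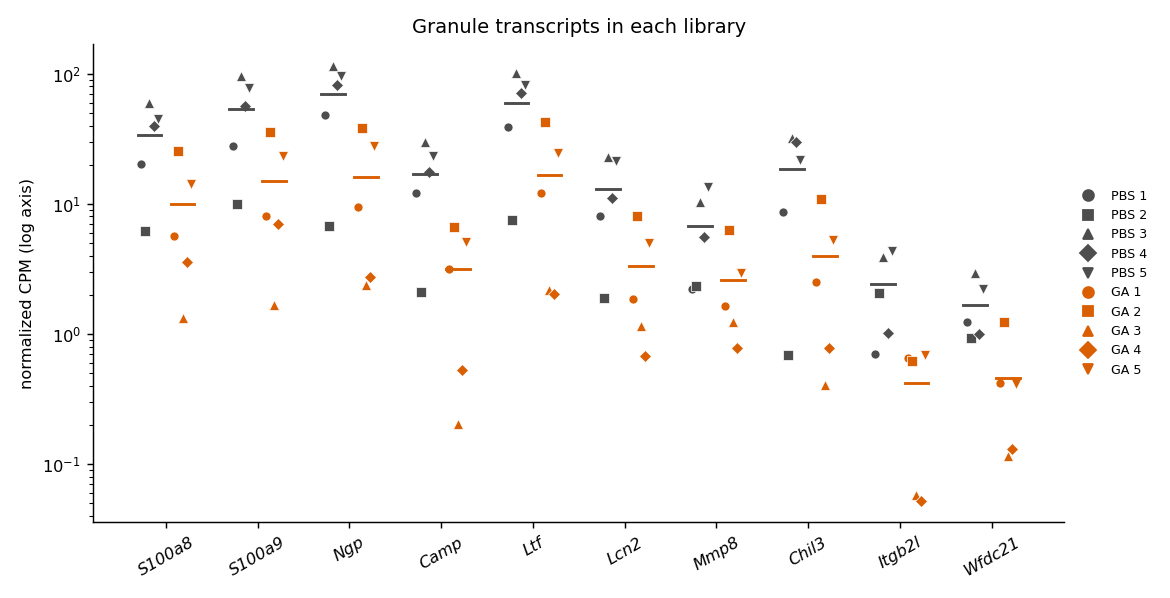
Normalized CPM of each of the 10 granule transcripts (horizontal axis) in each library, on a log axis, with PBS in grey, GA in orange, 1 marker shape per library and a bar at each group mean. PBS 3 or PBS 5 gave the highest point of every gene, GA 3 or GA 4 the lowest, and the groups are separate for Itgb2l alone.

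The calprotectin pair was measured in every library. S100a8 stood at 20.2, 6.22, 59.7, 39.5 and 44.8 CPM in PBS 1 to 5, and at 5.69, 25.4, 1.33, 3.56 and 14.3 CPM in GA 1 to 5. S100a9 stood at 27.9, 10.04, 96.4, 57.0 and 77.3 CPM in PBS 1 to 5, and at 8.06, 35.5, 1.68, 6.95 and 23.4 CPM in GA 1 to 5. Both genes put the 10 libraries in exactly the same order, from PBS 3 down to GA 3, and for both the groups overlapped, since GA 2 lay above PBS 1 and PBS 2. The fitted log2 fold change of GA against PBS was -1.76 (SE 0.65) for S100a8 and -1.83 (SE 0.65) for S100a9. Reads on S100a9 per read on S100a8 stayed between 1.26 (GA 3) and 1.95 (GA 4), with a median of 1.53, over a range of 44.9-fold in S100a8 itself.

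Ngp and Ltf, the most abundant of the specific granule transcripts by CPM, kept close to each other. Ngp was at 48.6, 6.81, 115, 81.6 and 95.9 CPM in PBS 1 to 5, and at 9.41, 38.4, 2.40, 2.73 and 27.9 CPM in GA 1 to 5. Ltf was at 39.0, 7.47, 101, 70.6 and 81.9 CPM in PBS 1 to 5, and at 12.05, 42.4, 2.20, 2.04 and 24.4 CPM in GA 1 to 5. PBS 2 was the lowest PBS library for both and sat below 3 GA libraries, and GA 2 was the highest GA library for both. The log2 fold change was -2.11 (SE 0.73) for Ngp and -1.85 (SE 0.73) for Ltf. Reads on Ngp per read on Ltf ranged from 0.781 (GA 1) to 1.33 (GA 4).

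Camp had the widest range of any member, 149-fold. Its CPM was 12.1, 2.09, 30.1, 17.7 and 23.4 in PBS 1 to 5, and 3.18, 6.65, 0.202, 0.524 and 5.12 in GA 1 to 5. In GA 3 it rested on 7 counts. PBS 2 was the only PBS library among the GA values, and the log2 fold change was -2.44 (SE 0.73). Reads on Camp per read on Ngp ran from 0.0843 in GA 3 to 0.338 in GA 1.

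Lcn2, which many cell types make in inflammation besides neutrophils, was at 8.14, 1.88, 22.8, 11.2 and 21.3 CPM in PBS 1 to 5, and at 1.86, 8.06, 1.16, 0.681 and 5.02 CPM in GA 1 to 5. The SD of its log2 level was 1.71, and the SD of its log2 ratio to the median member of each library was 0.307, the smallest of the 10. Lcn2 lay near the middle of the members in level and so helped to set that median, which by itself keeps this SD small. Its log2 fold change was -1.96 (SE 0.65). Mmp8 was at 2.20, 2.33, 10.4, 5.55 and 13.4 CPM in PBS 1 to 5, and at 1.65, 6.34, 1.24, 0.786 and 2.96 CPM in GA 1 to 5. GA 2 lay below only PBS 3 and PBS 5 for Mmp8, and above PBS 1, PBS 2 and PBS 4. The log2 fold change of Mmp8, -1.38 (SE 0.58), was the nearest to 0 among the members, and its range across libraries, 17.0-fold, was the narrowest.

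Chil3 is also made by alternatively activated macrophages, in which IL-4 induces it. It was at 8.66, 0.687, 32.3, 30.1 and 21.7 CPM in PBS 1 to 5, and at 2.52, 10.8, 0.404, 0.786 and 5.30 CPM in GA 1 to 5. PBS 2 lay below 4 of the 5 GA libraries, the lowest rank it took for any member, and the log2 fold change was -2.23 (SE 0.83). Its near-identical copy Chil4 had 1 count over all libraries together, so reads shared between the copies were few unless they were dropped in counting.

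Itgb2l and Wfdc21 were the scarcest members. Itgb2l was at 0.707, 2.06, 3.94, 1.02 and 4.34 CPM in PBS 1 to 5, and at 0.659, 0.618, 0.0578, 0.0524 and 0.695 CPM in GA 1 to 5, or 27 to 153 counts in PBS and 2 to 27 in GA. It was the 1 member whose groups did not overlap, by the narrow margin between 0.707 in PBS 1 and 0.695 in GA 5. Over all genes tested, 0.456% had every GA library below every PBS library, and 0.891% had groups that did not overlap in either direction. Its log2 fold change was -2.53 (SE 0.69). Wfdc21 was at 1.23, 0.926, 2.93, 0.992 and 2.21 CPM in PBS 1 to 5, and at 0.420, 1.24, 0.116, 0.131 and 0.412 CPM in GA 1 to 5. The other 4 GA libraries lay below every PBS library for Wfdc21, while GA 2 lay above PBS 1, PBS 2 and PBS 4, and the log2 fold change was -1.84 (SE 0.59). Itgb2, the related integrin of all leukocytes, had 31742 to 41942 counts per library. It had 37446 counts in GA 3 and 41942 in GA 4, the libraries in which Itgb2l had 2 counts each. Sharing of reads between the 2 genes was not tested.

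Per kilobase of exon, and over all libraries, the mean level was 65.9 CPM for S100a9, 35.1 for Ngp, 31.8 for S100a8, 13.3 for Camp and 11.1 for Ltf. It was 6.94 CPM per kilobase for Chil3, 3.13 for Lcn2, 2.44 for Wfdc21, 1.93 for Mmp8 and 0.327 for Itgb2l. These means pool both groups, and in GA alone Ltf (4.82) was above Camp (4.14), in contrast to PBS alone (17.4 and 22.5). S100a8 was likewise above Ngp in GA (14.5 and 13.2) and below it in PBS (49.1 and 57.0), and Mmp8 and Wfdc21 were level in GA (both 1.07) but not in PBS (2.79 and 3.82). In every library S100a9 was above Ngp, S100a8 above Camp, Ltf above Chil3 and Mmp8 above Itgb2l per kilobase. The other neighbours in this order changed places in some libraries.

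The make-up of the summed counts was more even than their amount. Ngp held a median of 23.3% of the members' counts in a library (range 14.9% to 28.8%), Ltf 21.8% (11.2% to 26.5%), S100a9 20.1% (15.5% to 38.1%) and S100a8 12.5% (11.6% to 19.5%). Camp held a median of 5.39%, Chil3 5.33%, Lcn2 4.62% and Mmp8 3.54%, while Wfdc21 held 0.711% and Itgb2l 0.585%. The libraries with the fewest member counts departed most. GA 4 had the largest share of S100a9 and the smallest of Ngp and Ltf, GA 3 the largest shares of Lcn2 (10.7%) and Mmp8 (11.5%), and PBS 2 the largest shares of Itgb2l (5.09%) and Wfdc21 (2.29%). Itgb2l had the largest SD of the log2 ratio to the median member, 1.18, beside an SD of 1.66 for its log2 level.

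**Figure D2:**
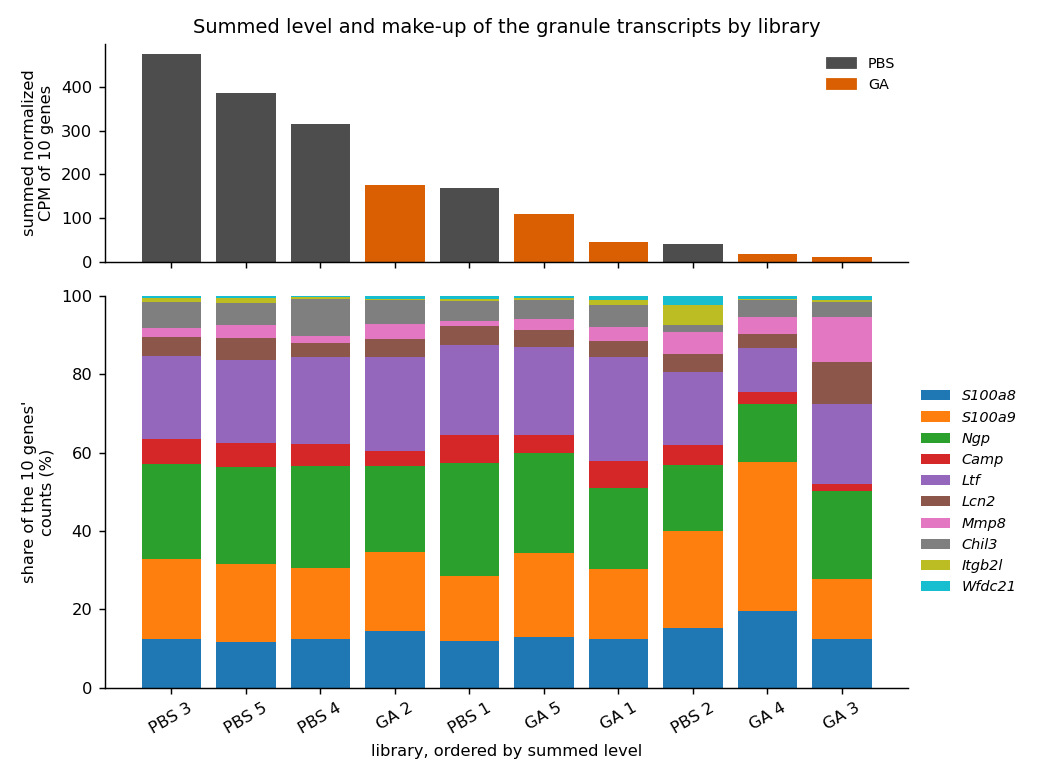
Top, summed normalized CPM of the 10 transcripts per library, ordered from PBS 3 (475) to GA 3 (10.8), with PBS in grey and GA in orange; bottom, each gene's percentage of the members' counts in the same library. Bars fall 44.1-fold from left to right in the top panel, while Ngp, Ltf and S100a9 remain the largest segments in all libraries but GA 4, where S100a8 is larger than Ngp and Ltf.

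Correlations between members are given as a description, because the members were chosen on these libraries for varying together, and all values of a library share its RNA, depth and amplification. Over the 45 pairs and 10 libraries, the median Pearson r of log2(CPM + 0.1) was 0.913, from 0.672 for Chil3 with Itgb2l to 0.995 for S100a8 with S100a9. Spearman's rho had a median of 0.927 and reached 1 for S100a8 with S100a9 and for Ngp with Camp. With the 2 libraries farthest from the median summed level left out (PBS 3 and PBS 5), the median r was 0.879 and the lowest 0.472. Within the PBS libraries alone the median was 0.839, from 0.154 for Chil3 with Itgb2l to 0.998 for Ngp with Ltf. Within the GA libraries alone it was 0.930, from 0.763 for Mmp8 with Itgb2l to 0.991 for Ngp with Ltf. With each gene's group means subtracted, a step chosen after the data were seen, the median was 0.858 and the lowest value 0.502. Most pairs thus varied together within each treatment as well as across them.

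By its median r with the other 9, Ngp was the most typical member (0.978), ahead of Ltf (0.968) and S100a8 (0.967). Camp (0.951), Chil3 (0.949), S100a9 (0.948) and Lcn2 (0.947) came close behind. Wfdc21 (0.899) and Mmp8 (0.887) followed less closely, and Itgb2l (0.787) least. The low value of Itgb2l went with PBS 2, where it stood at 2.06 CPM, above PBS 1 and PBS 4, although 8 of the other members were lower in PBS 2 than in either of those libraries.

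**Figure D3:**
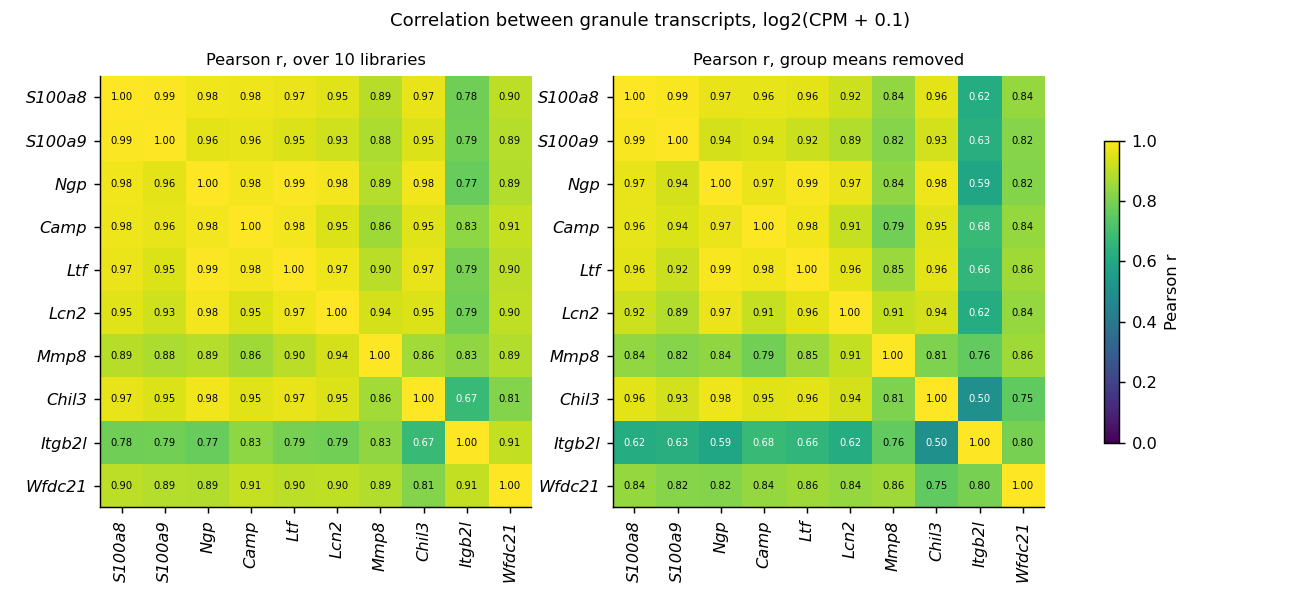
Pearson r of log2(CPM + 0.1) for each pair of the 10 transcripts, over 10 libraries (left) and with each gene's group means removed (right), coloured from 0 to 1. Cells are darkest in the row and column of Itgb2l, down to 0.672 on the left and 0.502 on the right, and lightest for S100a8 with S100a9 (0.995 and 0.992).

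The members had been proposed for their weight on PC1. Here PC1 was computed anew from the 500 most variable genes, after DESeq2's variance-stabilizing transformation, and may differ from the PC1 of that choice. PC1 held 31.5% of the variance, 9 members were among the 500 genes and 7 among the 20 strongest weights, with Ngp first (0.221), then Ltf (0.207) and S100a9 (0.181). Chil3 (0.165), S100a8 (0.161), Camp (0.136) and Lcn2 (0.103) were the others inside the first 20. Mmp8 ranked 40 (0.0629) and Itgb2l 266 (0.0329), and Wfdc21 was not among the 500 genes. Just outside or between the leading members stood Cotl1 (0.16), Mpeg1 (0.123) and Dusp1 (0.111), genes of actin binding, of a macrophage pore protein and of a phosphatase induced early after stimulation. The members held 21.2% of the squared weight. The scores ran from 10 in PBS 4 to -5.22 in GA 3, and PBS 4 thus led PC1 although PBS 3 and PBS 5 had more of the members. When PC1 was computed from log2 CPM with a prior count of 2 instead, 1 of the members, Chil3, remained among the 20 strongest weights.

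The comparison of GA with PBS asked whether the treatment altered microglial RNA, and for these members it is a description, since the PC1 weights that chose them came from the same libraries. By edgeR's quasi-likelihood test with Benjamini-Hochberg adjustment over 14481 genes, 0 of 10 members had an adjusted p below 0.05, and neither did any other gene (0%). Adjusted p ran from 0.847 to 0.854 over the members. Before adjustment all 10 were below 0.05 and lower in GA, and 3.17% of all genes were, with 2.58% higher in GA and 5.75% in either direction. With DESeq2, 0 members were called and the lowest adjusted p was 0.0989, for Itgb2l (0.0106% of genes called), and 10 were below 0.05 unadjusted (4.53% of all genes). With limma-voom 0 were called (0%), and 9 were below 0.05 unadjusted (6.12% of all genes), Chil3 being the exception.

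The median log2 fold change of the members was -1.90, and that of all genes tested was 0.00, where 49.9% of genes were lower in GA. All 10 members lay between the ranks 2 (Itgb2l) and 75 (Mmp8) when the genes were ordered from the lowest log2 fold change, and 1.46% of all genes had one at or below -1. Leaving out 1 library moved the members' median between -2.59 (without GA 2) and -1.62 (without PBS 3). Against all PBS libraries, GA 1 and GA 2 (prefix 394) alone gave a median of -1.34 and GA 3 to GA 5 (prefix 400) alone gave -2.64, with 0 members called in either.

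**Figure D4:**
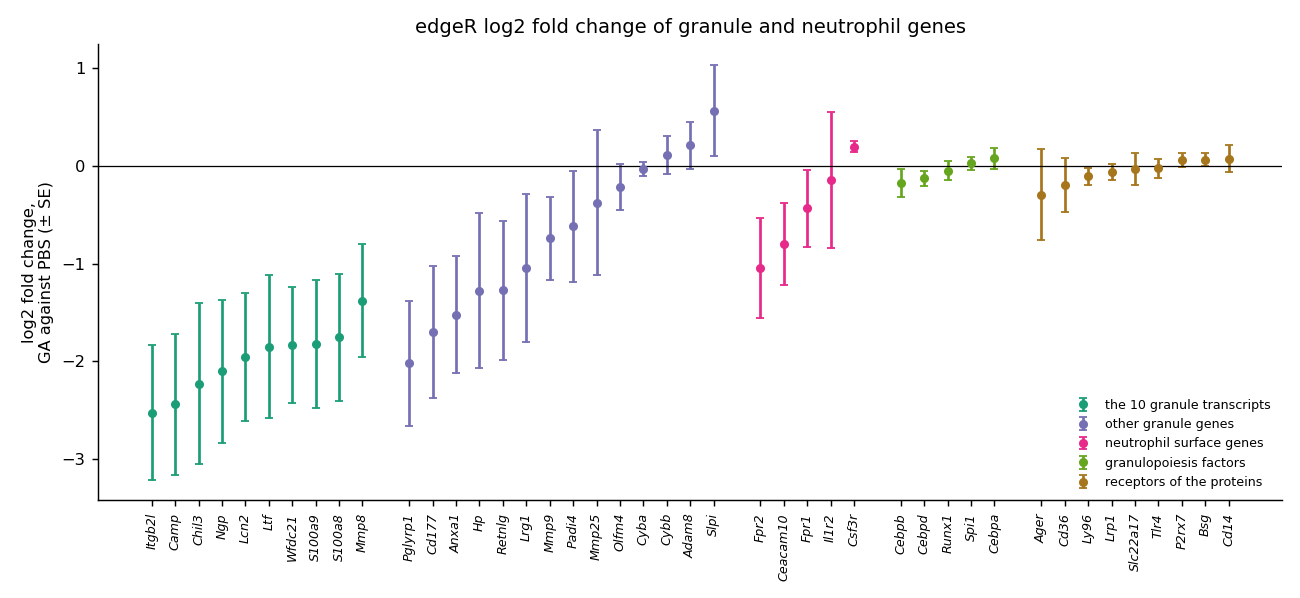
edgeR log2 fold change of GA against PBS, with its standard error, for the 10 granule transcripts and for tested genes of the lists of other granule, neutrophil surface, granulopoiesis and receptor genes. The 10 transcripts lie between -2.53 and -1.38, other granule genes spread from -2.02 to 0.57, and the granulopoiesis factors lie between -0.17 and 0.08.

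Genes of the azurophil granules, which are filled earliest, were close to absent beside the members. None of 6 passed the filter. Mpo, myeloperoxidase, had at most 3 counts in a library, Elane, neutrophil elastase, at most 13 (PBS 3), and Ctsg, cathepsin G, had 0 in every library, which allows up to 3 counts in each. Prtn3, proteinase 3, had at most 3 counts. The transcripts of later granules, by contrast, reached 3777 counts for Ngp.

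Of 14 other granule genes, all were tested and 0 were called by edgeR, with 3 above and 11 below 0 on the log2 fold change and a median of -0.68. The most abundant, Cyba and Cybb, encode subunits of the phagocyte NADPH oxidase that microglia also express, and had a log2 fold change of -0.03 (SE 0.07) and 0.11 (SE 0.20). Cd177, a surface and granule protein of neutrophils, was at 4.66, 1.34, 10.6, 5.36 and 12.1 CPM in PBS 1 to 5, and at 0.929, 5.53, 0.895, 0.21 and 2.88 CPM in GA 1 to 5. Its order of libraries resembled that of the members, with PBS 5 and PBS 3 highest and GA 4 lowest, and its log2 fold change was -1.70 (SE 0.68, adjusted p = 0.854 by edgeR). Pglyrp1, a peptidoglycan-binding protein, had a log2 fold change of -2.02 (SE 0.64) and Retnlg, a resistin-like secreted protein of neutrophils, one of -1.27 (SE 0.71). Mmp9, gelatinase B, behaved less like them, at 6.59 CPM in GA 3 and 11.2 CPM in GA 4, the libraries with the least of the members, and 5.97 CPM in PBS 1. Reads on Mmp9 per read on Ngp ranged from 0.123 to 4.11. Olfm4, a specific granule protein, had a log2 fold change of -0.22 (SE 0.23) and a Pearson r of 0.149 with the mean member profile.

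**Figure D5:**
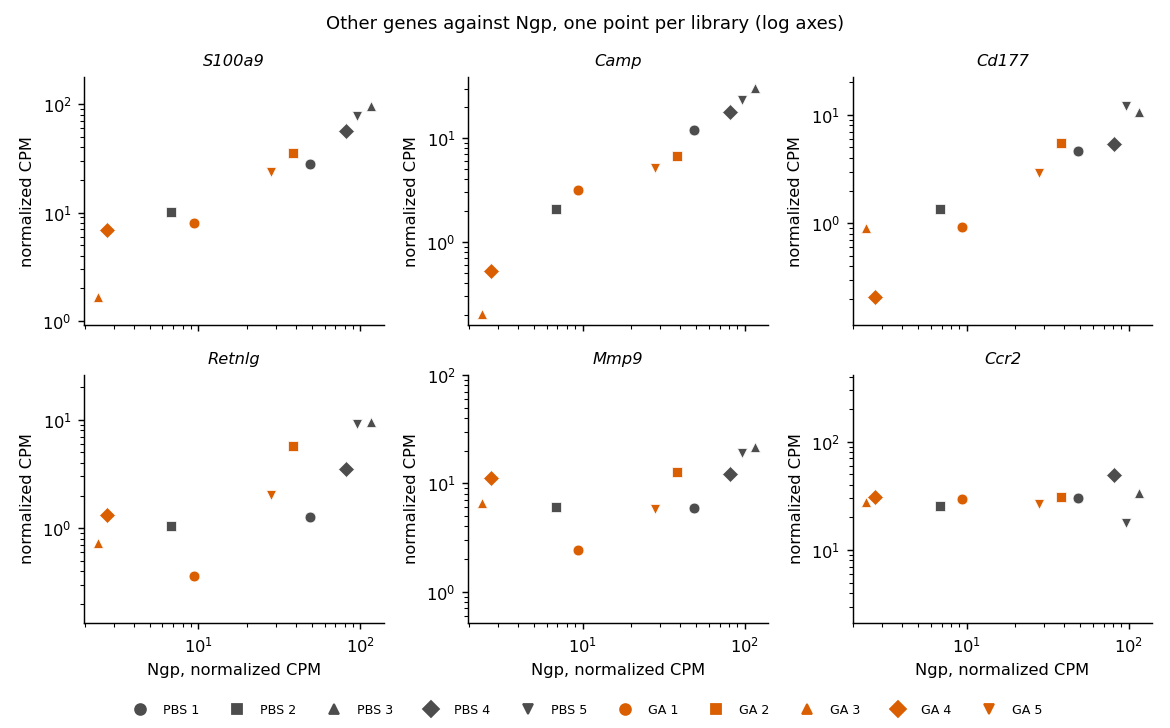
Normalized CPM of S100a9, Camp, Cd177, Retnlg, Mmp9 and Ccr2 against that of Ngp, 1 point per library, log axes, with PBS in grey and GA in orange. S100a9, Camp and Cd177 rise along with Ngp, while Mmp9 stands at 11.2 in GA 4, where Ngp is at 2.73.

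Surface genes of neutrophils were mostly scarce. Of 10, 6 were tested and 0 called by edgeR, with a median log2 fold change of -0.62. Csf3r, the receptor for granulocyte colony-stimulating factor, was at 844 ± 42.8 CPM in PBS and 967 ± 49.8 CPM in GA (SD, n = 5 each), which is many times the level of any member. Its log2 fold change was 0.20 (SE 0.06, adjusted p = 0.847 by edgeR) and its r with the mean member profile -0.62. Ly6g, the defining surface marker of mouse neutrophils, had 6, 2, 37, 5 and 28 counts in PBS 1 to 5 and 0, 11, 0, 3 and 18 in GA 1 to 5. Cxcr2, the chemokine receptor of mature neutrophils, had 0 to 69 counts. Both were highest in PBS 3 or PBS 5 and neither passed the filter. Trem1 and Clec4d, which did not pass either, went the other way, with means of 0.212 and 0.0407 CPM in PBS and 0.397 and 0.254 CPM in GA, and both were highest in GA 2, at 37 and 24 counts. Reads on Ly6g per read on Ngp were at most 0.0288.

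Marker lists of other blood and border cells were measured beside these values. Monocyte markers summed to 49.5 to 143 CPM in PBS and 50.02 to 111 CPM in GA, and their r with the members was 0.062. Ly6c2, a surface marker of inflammatory monocytes, had an r of 0.876 and a log2 fold change of -1.94, unlike the rest of its list. Over the other 5 tested monocyte markers, r ran from -0.34 (Ms4a4c, log2 fold change 0.40) to 0.297 (Fn1, -0.17), with Ccr2 at 0.0359 (-0.10). Border macrophage markers summed to 43.3 to 246 CPM in PBS and 47.3 to 185 CPM in GA, with an r of 0.0659. Markers of T and NK cells reached at most 0.764 CPM and those of mast cells, basophils and eosinophils at most 0.0611 CPM, with Cpa3, Mcpt8 and Prg2 at 0 in every library, and their r with the members was 0.428 and 0.431. Erythroid markers summed to 0.347 to 2.55 CPM over all libraries (r 0.583), platelet markers to 29.6 to 44.7 CPM (r 0.254) and B cell markers to 539 to 673 CPM (r -0.54). Of 10 neutrophil markers, 5 were tested, and Csf3r made up nearly all of their sum of 826 to 920 CPM in PBS and 896 to 1039 CPM in GA. The part of any cell type in the differences between libraries was not tested.

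The factors that act on these genes were measured too. Of 8 granulopoiesis factors, 5 were tested and 0 called by edgeR, with a median log2 fold change of -0.05. Spi1, which encodes PU.1 and is also needed by microglia, was at 387 ± 31.0 CPM in PBS and 395 ± 17.5 CPM in GA (SD, n = 5 each). Runx1 had a log2 fold change of -0.05, and Cebpa, Cebpb and Cebpd had log2 fold changes of 0.08, -0.17 and -0.13. Cebpe, the C/EBP factor required for specific granules, had at most 13 counts in a library (PBS 3), and Gfi1, a repressor needed for neutrophil maturation, at most 12, also in PBS 3. Of 9 genes that attract or mobilize neutrophils, 2 were tested, 0 were called, and Cxcl3, Cxcl5, Csf3, Csf2 and Il17a had 0 counts throughout.

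Receptors for the member proteins ranged from abundant to nearly unread. Of 11, 10 were tested and 0 called by edgeR, with 3 above and 7 below 0 and a median log2 fold change of -0.05. Tlr4, the pattern receptor to which calprotectin binds, was at 194 ± 28.7 CPM in PBS and 191 ± 16.9 CPM in GA, and its co-receptor Cd14 at 906 ± 177 and 954 ± 176 CPM (SD, n = 5 each). Slc22a17, a receptor for lipocalin 2, was at 103 ± 29.9 and 101 ± 9.01 CPM, and Lrp1, which takes up lactotransferrin, at 920 ± 77.3 and 883 ± 96.4 CPM. The spread between libraries exceeded the difference between groups for these 4 genes. Others were scarce: Lrp2 had 1 count over all libraries and was not tested, and Fpr2, a receptor for the cathelicidin peptide, was at 0.494 ± 0.269 CPM in PBS and 0.236 ± 0.0604 CPM in GA (SD, n = 5 each), with a log2 fold change of -1.04 (SE 0.51, adjusted p = 0.872 by edgeR).

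Among 14471 genes outside the members, 10 (0.0691%) had a Pearson r of 0.9 or more with the mean z-score of the members over the 10 libraries, the median being -0.02. The 8 most alike were Anxa1 (0.970), Pglyrp1 (0.964), Cd177 (0.947), Serpinb1a (0.928), Arhgef11 (0.925), Fcnb (0.922), Lrg1 (0.922) and Tnrc6c (0.915). Anxa1, annexin A1, Pglyrp1, Cd177, Serpinb1a, a neutrophil protease inhibitor, Fcnb, a ficolin of myeloid cells, and Lrg1 are known from neutrophils. Arhgef11 and Tnrc6c differed by only 1.32-fold and 1.54-fold between their highest and lowest libraries, compared with 37.3-fold for Anxa1 and 57.8-fold for Cd177. Anxa1 was at 10.3, 2.54, 22.6, 11.1 and 18.6 CPM in PBS 1 to 5, and at 4.05, 10.5, 0.607, 1.97 and 5.53 CPM in GA 1 to 5. The most opposite were Gtf2ird1 (-0.90), Zmym3 (-0.90) and Trub1 (-0.90).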

How the data were processed

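RNA from CD45int CD11b+ hippocampal microglia was measured in 10 libraries, 5 PBS and 5 GA, grouped by the treatment label. The authors deposited raw counts of reads per gene, as whole numbers without normalization. Per the labels, cDNA was pre-amplified with SMARTer chemistry and 150 pg entered NexteraXT, so reads are not independent molecules and a count of 0 allows up to 3 counts, for counting error only. The submitters' processing notes name bcl2fastq 2.19.0, fastp 0.20.0, STAR 2.7.0f, Subread 1.6.4, featureCounts, DESeq2 and GRCm38.p6. The strand setting and the treatment of reads that map to several places are not given in the sources used here. Every column matched a sample (0 without one).

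The members and gene lists were chosen with earlier results of these data known. Counts were filtered with filterByExpr (minimum count 10), scaled by TMM and tested with edgeR 4.0.16 (R 4.3.3) with treatment as the only term, adjusting over all genes at 0.05. Alternatives were DESeq2 1.42.0, limma-voom (limma 3.58.1), other scaling and filters, a replicate block, each title prefix and each library left out. Simulated counts, in which 200 of 14481 genes differed between GA and PBS by 1 on the log2 scale, gave 170 recovered genes and 12 false calls in edgeR, 177 and 26 in DESeq2, and 170 and 8 in limma-voom. The 200 were drawn from genes with a mean above 1 CPM, and recovery was not measured for genes as variable as the members. The simulation thus does not tell how often changes like those of the members would be called. Levels were correlated as log2(CPM + 0.1), without a test. Genes were placed with GENCODE M21, and exon lengths are unions of its exons. Promoter windows came from RefSeq. The text names all members, listed genes that passed the filter (the 2 most abundant per list first), defining markers near 0, copies of members, the 8 genes most like the members and the 3 most opposite. The genes leading PC1 beside the members, and genes of the lists below the filter, were named after their values were seen. A neutrophil surface gene that was tested is not reported here. Tables and figures were made with Python 3.11.15, pandas 2.3.3, scipy 1.17.1 and matplotlib 3.10.9.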

Additional observations from a re-analysis of the deposited data

Results flagged for a closer look

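Of 24 groups of 5 libraries examined (each member, the summed level and the PC1 score, in PBS and in GA), 1 held a library far from the other 4. In the GA group, Wfdc21 stood at 1.24 CPM in GA 2, and the gap to the next library was 0.728 of the group's whole range, above the critical value of 0.71 for 5 libraries. GA 2 was also the highest GA library for 8 of the other 9 members. Chance alone sets a library apart in about 1 in 20 groups.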

How the results depend on the processing

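The members' median log2 fold change stayed below 0 in every alternative run, and so did all 177 alternative values of single members, which ran from -3.13 to -0.55. None had an adjusted p below 0.05, the lowest being 0.0989. Of all genes, DESeq2 with its defaults called 2 (Gm1070 and Dcstamp), edgeR without GA 1 called 1 (Gm15920), and the range over single libraries left out was 0 to 1. None of these was a member, and 0 members were called throughout. Over libraries left out, the members' median ran from -2.59 (without GA 2) to -1.62 (without PBS 3), the difference of the summed level between groups from -264 CPM (without PBS 2) to -156 CPM (without PBS 3) and to -103 CPM without both PBS 3 and PBS 5, the members among the 20 strongest PC1 weights from 6 to 8, and the median correlation between pairs from 0.895 to 0.946. Log2 CPM with a prior count of 2 left 1 member, not 7, among those weights, and PBS alone gave a median correlation of 0.839. The cause of these shifts was not tested. A replicate block on the title numbers gave a median of -1.36 and 0 calls. No GA title shares its number with PBS 4 or PBS 5, so those 2 libraries do not inform the blocked estimate. Same-numbered libraries correlated between -0.12 and 0.05 in their deviations from group means. Differently numbered libraries were not compared, so these values cannot decide whether the numbers pair the libraries. Depth limits Itgb2l, which rested on 2 counts in GA 3 and in GA 4, and Wfdc21, which rested on 4 and 5.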
